A study of Mus musculus with 6 samples.

Results

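The 10 genes described here control the passage of a cell from G1 into S phase: the D-type cyclins Ccnd1, Ccnd2 and Ccnd3, the E-type cyclins Ccne1 and Ccne2, the cyclin-dependent kinases Cdk2, Cdk4 and Cdk6, the kinase inhibitor Cdkn1b and the phosphatase Cdc25a. They were taken by symbol from the array annotation, using only probe sets annotated to a single gene, and gave 11 probe sets for 10 of 19938 measured genes. Cdkn1b has 2 probe sets and each of the other 9 genes has 1. RNA came from mouse embryonic stem cells with floxed Dicer alleles (Dicer Fx/Fx), 3 arrays from untreated cells and 3 from cells given tamoxifen to delete Dicer. Tamoxifen was given for 3 days and the cells were collected 2 days later, on day 5; no collection day was recorded for untreated cells. Both groups carry the floxed alleles and were cultured under standard stem cell conditions. The labels do not name the recombinase that tamoxifen activates or say whether the line is a single clone, and they are silent on whether replicates were separate cultures; all p-values here therefore rest on the spread of these arrays, which can be purely technical. Wild-type E14 cells given tamoxifen are mentioned in the labels and were not analysed here, so tamoxifen exposure and loss of Dicer cannot be told apart.

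D-type cyclins bind Cdk4 and Cdk6, and E-type cyclins bind Cdk2. Both kinds of complex phosphorylate the retinoblastoma protein and its relatives, which frees E2F factors to transcribe the genes of DNA replication. Cdkn1b (p27) binds and restrains cyclin E-Cdk2, and Cdc25a removes inhibitory phosphates from Cdk2. Mouse embryonic stem cells are known for a short G1 phase, abundant cyclin E-Cdk2 activity and little cyclin D activity.

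Dicer cuts microRNA precursors into mature microRNAs, and several microRNA families are described as regulators of this group of genes. Their mature sequences are given because these are Dicer products with described G1/S targets; the deposited values do not measure them. All 8 sequences sought were present among 1679 mature mouse microRNAs in RefSeq (build GRCm38.p6). The seed, bases 2 to 8 from the 5′ end, is in capitals. Let-7 has described targets among Cdc25a, Cdk6 and the D-type cyclins, the miR-15/16 family among Ccnd1, Ccnd3 and Ccne1, and miR-17 and miR-20a on Ccnd1. MicroRNAs of the miR-290 cluster, the most abundant of mouse embryonic stem cells, are described as repressors of G1/S inhibitors such as Cdkn1a and Rbl2.
let-7a-5p: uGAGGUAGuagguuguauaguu
miR-15a-5p: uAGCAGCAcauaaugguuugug
miR-16-5p: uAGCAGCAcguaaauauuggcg
miR-17-5p: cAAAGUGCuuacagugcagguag
miR-20a-5p: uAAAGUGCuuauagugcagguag
miR-291a-3p: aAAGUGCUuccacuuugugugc
miR-294-3p: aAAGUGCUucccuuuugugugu
miR-295-3p: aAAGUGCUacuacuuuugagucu
These sequences fall into 4 seed groups. The let-7a seed was shared by 11 mature microRNAs of the table, the miR-15a and miR-16 seed by 10, the miR-17 and miR-20a seed by 7 and the seed of miR-291a, miR-294 and miR-295 by 5. No target site was searched for in the members' transcripts.

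The arrays and the targeted gene were examined first. Dicer1 was at 11.36 to 11.48 in untreated and 9.48 to 9.69 in tamoxifen arrays (log2 intensity), a change of -1.85 ± 0.07 (SE; limma adjusted p = 3.61e-05). Which exons were deleted is not given in the labels, and the probe set may cover sequence outside the deletion. Correlations across genes were 0.996 to 0.998 within groups and 0.993 to 0.996 between groups. Tamoxifen replicate 1 lay nearest the untreated arrays on the first principal component, at 6.87 against 17.9 and 15.8 for replicates 2 and 3, although its Dicer1 value of 9.53 lay between theirs. Of 10 embryonic stem cell markers, 0 were called by limma (4 at an unadjusted p under 0.05; 0 higher and 2 lower with replicates as a block), and Pou5f1, Sox2 and Nanog had untreated means of 12.98, 13.01 and 13.32. None of 10 fibroblast, 7 primitive endoderm or 5 measured primed epiblast markers was called by limma, with 2, 2 and 1 of them at an unadjusted p under 0.05; with the block 0, 1 and 0 rose and 1, 1 and 1 fell.

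After tamoxifen 3 of the 10 genes rose, 0 fell and 7 were not called. Ccnd1, Ccne2 and Cdk6 were the genes that rose, by 1.22-fold to 1.47-fold. Ccnd2 had the largest change in value, 1.74-fold, and was called with replicates paired or without tamoxifen replicate 1, but not in the fit of all 6 arrays without pairing. Ccnd3, Ccne1, Cdk2, Cdk4 and Cdkn1b had changes of 1.05-fold to 1.08-fold, in either direction, and were not called. Over all genes, 3.79% were called higher and 3.99% lower (limma, Benjamini-Hochberg adjusted p under 0.05). When genes were split by mean signal into 10 equal bins, the 10 genes all lay in bins 7 to 10, the bright end. Without the 40% of genes with the lowest signal, 6.39% were called higher and 8.02% lower, with 3 and 0 of the 10 genes. The median log2 change was 0.12 over the 10 genes and 0.01 over all genes, and at an unadjusted p under 0.05 there were 4 higher and 1 lower, against 11.5% and 13.1% of all genes. In bulk RNA, a change in every cell and a change in the share of cells that carry a transcript, for example through their position in the cell cycle, cannot be told apart. Because the arrays were quantile-normalised, a shift common to most transcripts would not show, and small changes of dim probe sets are understated.

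**Figure D1:**
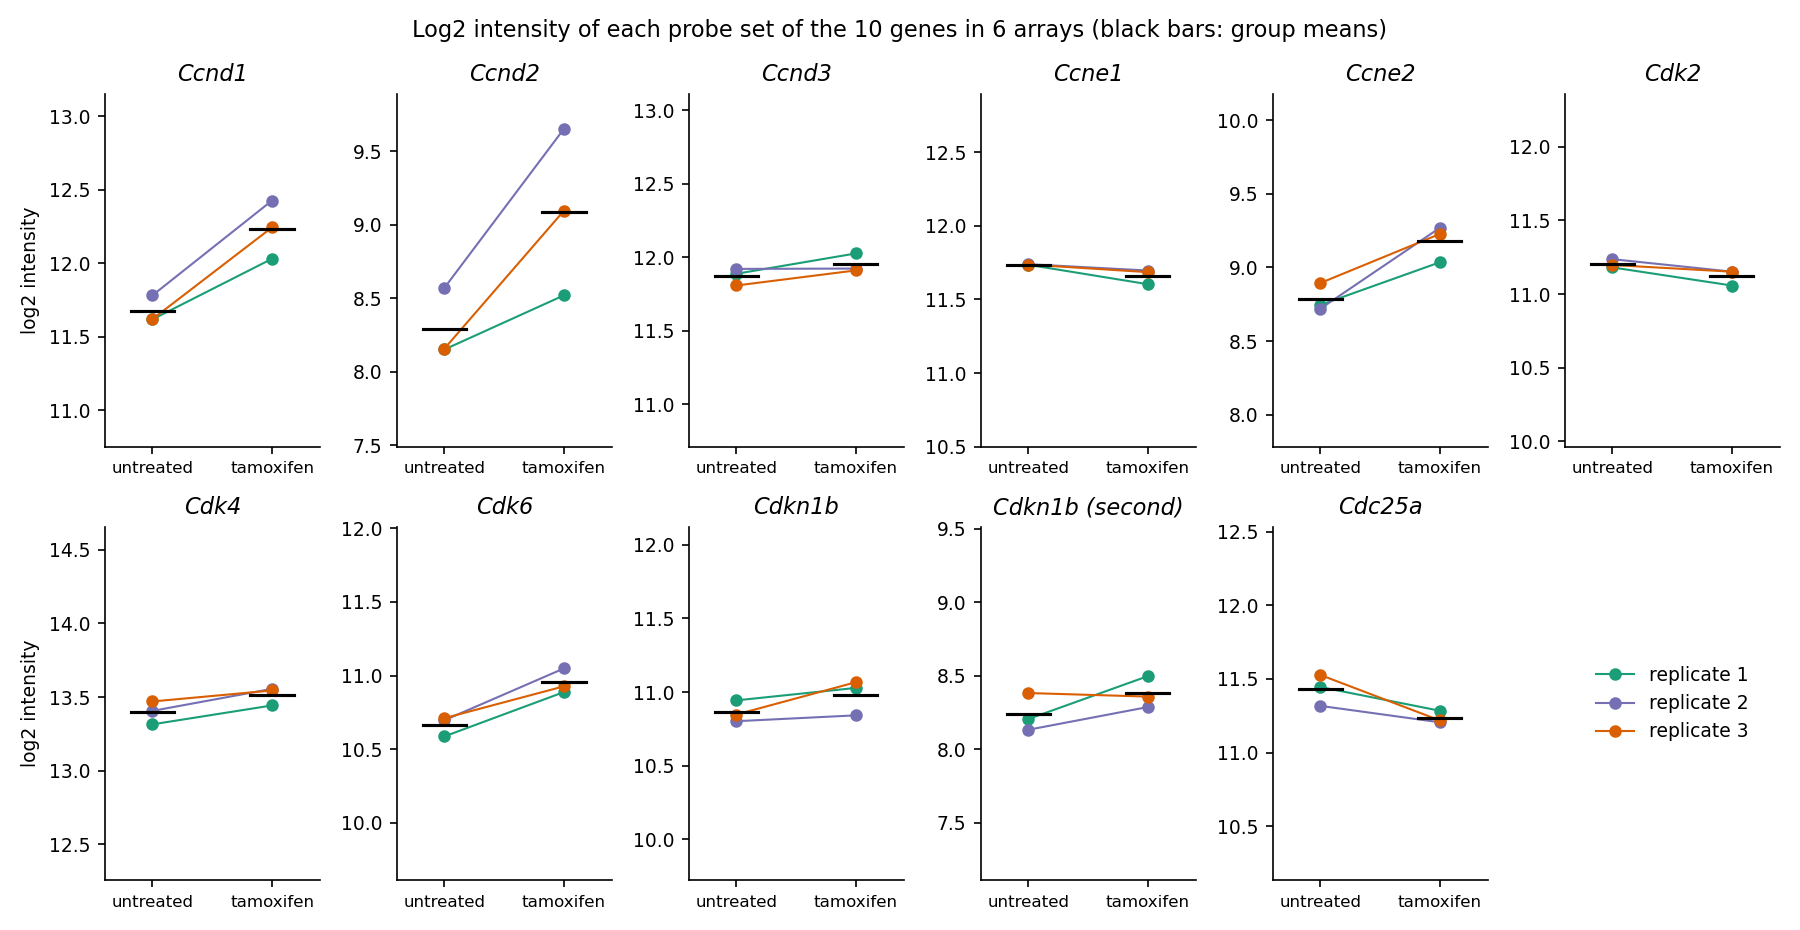
Log2 intensity of each of the 11 probe sets in untreated and tamoxifen arrays, with lines joining arrays of the same replicate number and black bars at the group means; every panel spans the same height on the log2 axis. The group means of Ccnd1, Ccnd2, Ccne2 and Cdk6 are the furthest apart, with higher values after tamoxifen in all 3 pairs. The lines of Ccne1 and Cdk2 are almost level, and Ccnd2 spreads from 8.52 to 9.65 after tamoxifen.

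Among the D-type cyclins, which couple growth signals to Cdk4 and Cdk6, Ccnd1 rose. Its log2 intensities (probe set 10569646) were 11.62, 11.78 and 11.62 in untreated replicates 1, 2 and 3 and 12.03, 12.43 and 12.24 after tamoxifen. All tamoxifen arrays lay above all untreated arrays, with a gap of 0.25 between the groups. The change was 0.56 ± 0.10 (SE), or 1.47-fold with a 95% confidence interval from 1.26 to 1.73, and the limma adjusted p was 0.0158. It was 0.41, 0.64 and 0.62 in replicate pairs 1, 2 and 3. The adjusted p rose to 0.0567 without tamoxifen replicate 2 and to 0.0595 without tamoxifen replicate 3.

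Ccnd2 (probe set 10548105) varied more between arrays than any other member. Untreated arrays read 8.15, 8.57 and 8.16 and tamoxifen arrays 8.52, 9.65 and 9.10, so tamoxifen replicate 1 lay below untreated replicate 2. Replicate 2 was the highest in both groups. The SD was 0.24 in untreated and 0.57 in tamoxifen arrays (log2, n = 3), against medians over the 10 genes of 0.08 and 0.07. The change of 0.80 ± 0.25 was not called (adjusted p = 0.0868), with a 95% interval of the fold from 1.18 to 2.56. Within replicate pairs it was 0.37, 1.08 and 0.94, and limma called it higher once replicate pairs were blocked (adjusted p = 0.00415). Without tamoxifen replicate 1 the change was 1.08 (adjusted p = 0.0147).

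Ccnd3 (probe set 10445688) had values of 11.89, 11.92 and 11.81 in untreated and 12.03, 11.92 and 11.91 in tamoxifen arrays. The groups overlapped. The change was 0.08 ± 0.06 (adjusted p = 0.486), and its 95% interval from -0.07 to 0.23 leaves out a rise of the size seen for Ccnd1.

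The E-type cyclins activate Cdk2 at the G1/S boundary, and of them Ccne2 rose and Ccne1 was not called. Ccne2 (probe set 10503264) read 8.75, 8.72 and 8.89 in untreated arrays and 9.04, 9.27 and 9.23 after tamoxifen. The groups did not overlap. Ccne2 rose by 0.39 ± 0.08 on the log2 scale, 1.31-fold with a 95% interval from 1.15 to 1.49 (limma adjusted p = 0.0264). Pair changes were 0.29, 0.55 and 0.33. The call held in 2 of 6 fits that left out 1 array, those without untreated replicate 3 and without tamoxifen replicate 1; in the other 4 the adjusted p lay between 0.0584 without untreated replicate 1 and 0.109 without tamoxifen replicate 2, with 0.0969 without untreated replicate 2 and 0.0949 without tamoxifen replicate 3.

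Ccne1 (probe set 10562563) read 11.74 in each of the 3 untreated arrays and 11.60, 11.70 and 11.69 in tamoxifen arrays. The tamoxifen values all lay below the untreated ones by at least 0.04, and the untreated SD of 0.002 was the smallest of the set. The change was -0.08 ± 0.06 with a 95% interval from -0.21 to 0.06, which was not called (adjusted p = 0.474).

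The kinases that partner the D-type cyclins were Cdk6 and Cdk4. Cdk6 (probe set 10519324) read 10.59, 10.70 and 10.71 before and 10.89, 11.05 and 10.93 after tamoxifen, without overlap. It rose by 0.29 ± 0.07, or 1.22-fold with a 95% interval from 1.10 to 1.36 (limma adjusted p = 0.0399). Pair changes were 0.30, 0.35 and 0.22. It had the highest adjusted p of the 3 genes that rose. Only the fit without tamoxifen replicate 1 kept it when an array was left out (0.0449); leaving out untreated replicate 1, 2 or 3 gave an adjusted p of 0.0838, 0.0988 or 0.0686, and leaving out tamoxifen replicate 2 or 3 gave 0.152 or 0.104.

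Cdk4 (probe set 10366814) had values of 13.31, 13.41 and 13.47 in untreated and 13.44, 13.56 and 13.54 in tamoxifen arrays. Tamoxifen replicate 1 lay below untreated replicate 3. The change of 0.12 ± 0.07 was not called (adjusted p = 0.328; 95% interval -0.04 to 0.27), although the value was higher in 3 of 3 pairs. Cdk2 (probe set 10373530), the partner of cyclin E, read 11.18, 11.24 and 11.20 in untreated and 11.06, 11.15 and 11.15 in tamoxifen arrays. These groups did not overlap but stood only 0.03 apart, and the change of -0.08 ± 0.06 was not called (adjusted p = 0.433; 95% interval -0.22 to 0.05).

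For the inhibitor Cdkn1b the brighter probe set (10542310) read 10.94, 10.80 and 10.85 in untreated and 11.03, 10.84 and 11.07 in tamoxifen arrays. Its change of 0.11 ± 0.08 was not called (adjusted p = 0.408; 95% interval -0.06 to 0.29). The dimmer probe set (10542317) read 8.21, 8.13 and 8.38 before and 8.50, 8.29 and 8.36 after tamoxifen. Both overlapped between groups. In a fit over all 21789 probe sets annotated to 1 gene, of which 7.28% were called, the dimmer probe set changed by 0.14 ± 0.09 (adjusted p = 0.357). The probe sets were thus alike in sign of the mean change, while the dimmer one was higher in 2 of 3 pairs and the brighter one in 3 of 3.

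The phosphatase Cdc25a (probe set 10589420) had the lowest change of the 10 genes. It read 11.44, 11.32 and 11.53 in untreated and 11.28, 11.21 and 11.22 in tamoxifen arrays. The groups did not overlap, with a gap of 0.03. The change of -0.19 ± 0.07, or -12.6%, was not called by limma (adjusted p = 0.133, or 0.0703 with the replicate block), and pair changes were -0.16, -0.11 and -0.31.

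**Figure D2:**
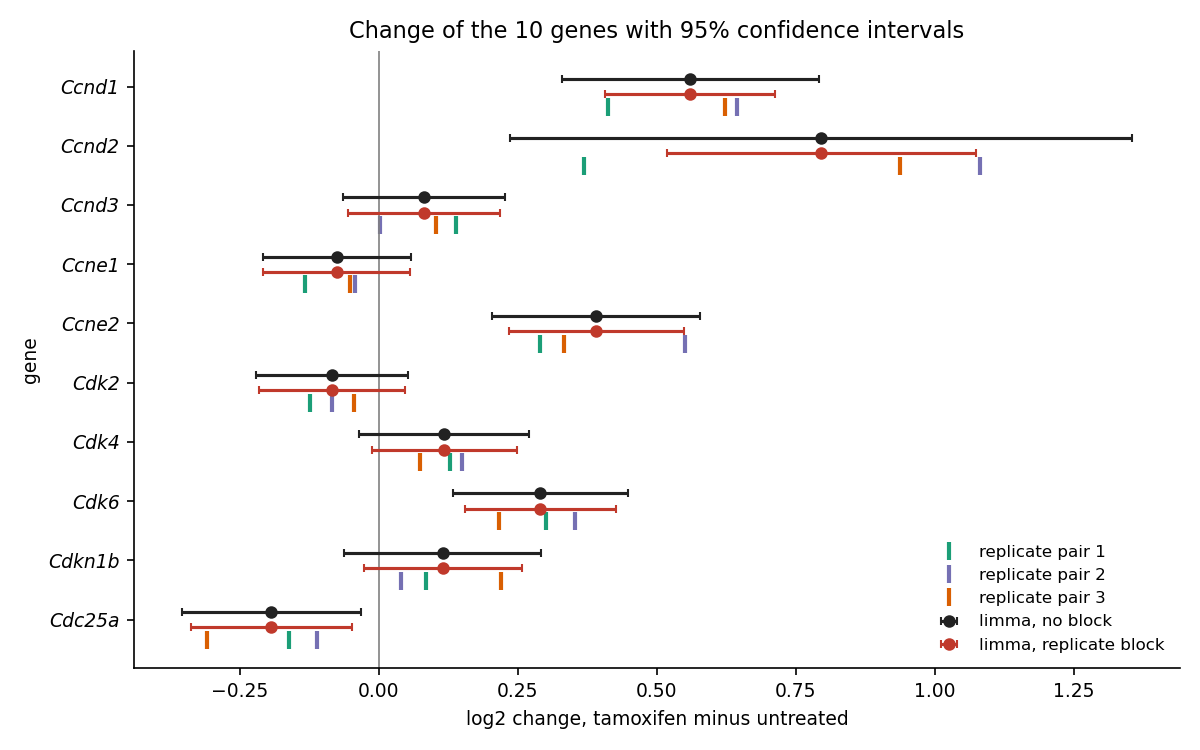
Log2 change (tamoxifen minus untreated) of the 10 genes with 95% confidence intervals from limma without a block (black) and with the replicate number as a block (red), n = 3 arrays a group; coloured ticks are the 3 replicate pairs. The intervals of Ccnd1, Ccnd2, Ccne2 and Cdk6 lie above 0 in both fits and that of Cdc25a below 0, while the other 5 include 0; these are intervals of single genes, not adjusted for the number of genes.

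The replicate numbers were taken to pair the arrays, and pairing narrowed the interval of each of the 10 genes. With the block 4 of the 10 genes were called higher and 0 lower, Ccnd2 joining the other 3, while over all genes 7.87% were called higher and 9.54% lower. The adjusted p with the block was 0.00163 for Ccnd1, 0.0073 for Ccne2 and 0.0137 for Cdk6. Read at the brighter probe set of Cdkn1b, each of the 10 genes kept 1 direction in all pairs, 7 higher and 3 lower, where 25.7% of all genes were higher and 26.0% lower in all 3 pairs. The groups did not overlap for 3 genes with higher and 3 with lower values after tamoxifen; the shares of all genes were 14.5% and 14.8%. For a single gene the exact two-sided permutation test of 3 against 3 arrays cannot go below p = 0.1. In pair 1 the changes of Ccnd1, Ccnd2 and Ccne2 were the smallest of the 3 pairs; the part of tamoxifen replicate 1, which lay nearest the untreated arrays, was not tested.

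**Figure D3:**
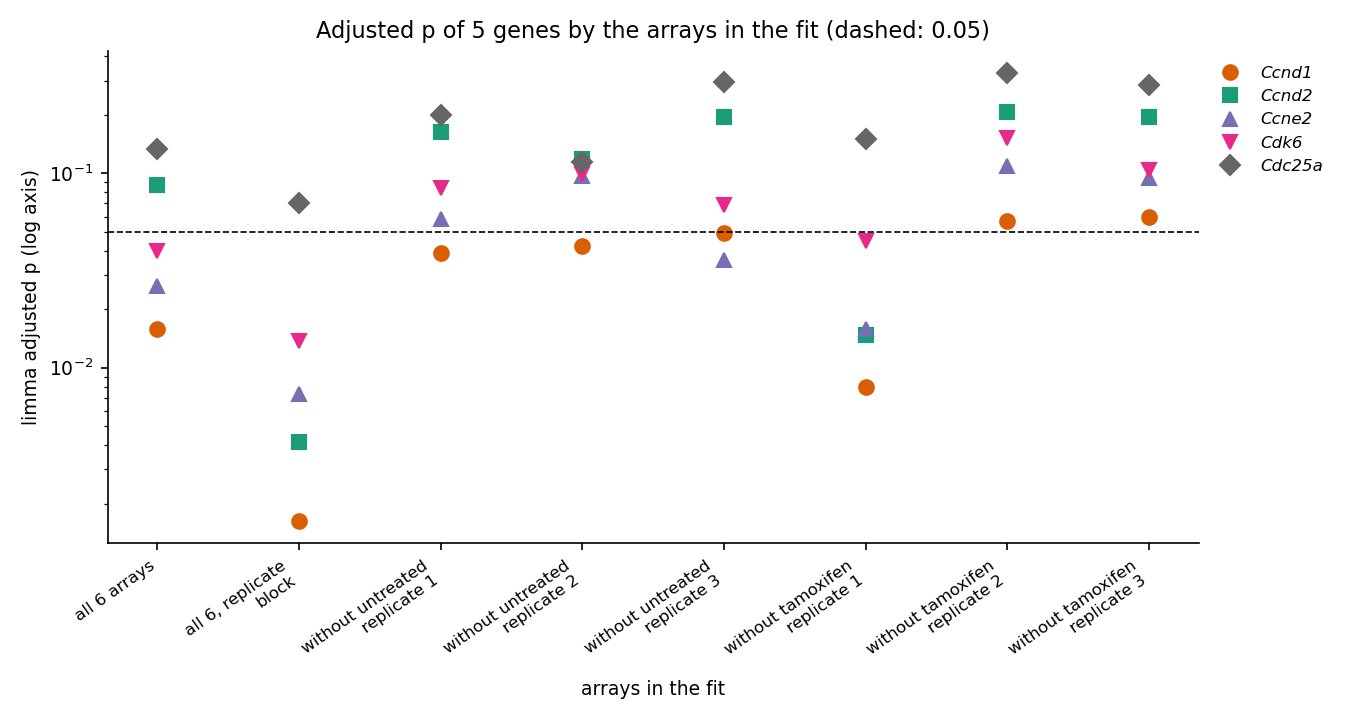
Limma adjusted p on a log axis for Ccnd1, Ccnd2, Ccne2, Cdk6 and Cdc25a, by the arrays that entered the fit, with the threshold of 0.05 dashed. Leaving out tamoxifen replicate 2 or 3 puts all 5 genes above the threshold, and leaving out tamoxifen replicate 1 puts 4 of them below it. The replicate block gives the lowest value shown for each gene. Calls over all genes varied alike, from 7.78% with all 6 arrays to 7.92%, 1.78% and 2.70% without tamoxifen replicate 1, 2 and 3. Without untreated replicate 1, 2 and 3 the shares were 6.08%, 2.59% and 4.55%.

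Closely related genes were compared within arrays by subtracting 1 log2 value from the other, so that a scale factor of an array cancels. There were 5 such comparisons, each with an exact two-sided permutation test over the 6 arrays and p-values adjusted over the 5. Ccne2 changed by 0.47 more than Ccne1, by 0.42, 0.59 and 0.39 in the pairs, and Ccnd1 by 0.48 more than Ccnd3, by 0.27, 0.64 and 0.52. Cdk6 changed by 0.17 more than Cdk4, by 0.17, 0.20 and 0.14. In these 3 comparisons the tamoxifen and untreated differences did not overlap, which gave the smallest p that the design allows (0.1, adjusted 0.167). Ccnd2 exceeded Ccnd3 by 0.71 with overlap (exact permutation p = 0.2, adjusted 0.25), and the change of Ccnd1 minus that of Ccnd2 was -0.24 (exact permutation p = 0.4, adjusted 0.4), with signs that were not the same in all pairs. With this test none of the 5 comparisons could pass 0.05, so unequal changes of related genes are given here by their size.

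Genes that act with the members were taken from 5 lists. Of 67 listed genes 64 were measured, of which 2 rose, 7 fell and 55 were not called. Over all genes 3.79% rose and 3.99% fell. The median change of the 64 was -0.04, against 0.01 over all genes. In signal bins 7 to 10, where many of these genes lie, the medians of all genes were also -0.06 to -0.04. Without the 40% of genes with the lowest signal, 2 network genes rose and 7 fell, where 6.39% of the genes kept rose and 8.02% fell. With the replicate block the counts were 2 and 9, where 7.87% of all genes rose and 9.54% fell. The counts were lower without several arrays, for the network as for all genes. Without untreated replicate 1, 2 and 3, 3, 1 and 1 network genes fell, where 2.93%, 1.01% and 2.23% of all genes fell. Without tamoxifen replicate 2 or 3, 0 fell, where 0.672% and 0.988% of all genes fell. Without untreated replicate 2 or 3, 1 rose, where 1.58% and 2.33% of all genes rose. It was also 1 without tamoxifen replicate 2 or 3, where 1.11% and 1.72% of all genes rose.

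Pocket proteins and E2F factors, on which the cyclin-dependent kinases act, included both of the network's rises. Of 13 measured, 2 rose and 2 fell, where 3.79% of all genes rose and 3.99% fell. Rb1, the retinoblastoma gene, read 9.98, 9.72 and 9.69 before and 10.55, 10.48 and 10.55 after tamoxifen, rose by 0.73 ± 0.09 (adjusted p = 0.00389) and passed in all 6 fits that left out an array. E2f5 rose by 0.31 ± 0.07 (limma adjusted p = 0.0357, called in 1 of these 6 fits). E2f2 fell by 0.48 ± 0.10 (limma adjusted p = 0.0224, 3 of 6 fits) and E2f4 by 0.27 ± 0.06 (limma adjusted p = 0.0376, 1 of 6 fits). Rbl2, the pocket protein gene described as a miR-290 cluster target, had a change of -0.03 ± 0.06 (outside the naming rule), and 9 of the 13 were not called.

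Of the other cyclin-dependent kinase inhibitors 5 of 6 were measured and 0 were called by limma, with 1 at an unadjusted p under 0.05. Cdkn1a had no probe set annotated to it alone and was not analysed here. Cdkn1c (p57), a relative of Cdkn1b, had the smallest p, at 0.30 ± 0.11 (adjusted p = 0.137 without and 0.0604 with the block).

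Among 21 measured genes for the activation and turnover of G1 cyclin complexes 0 rose and 3 fell. The shares of all genes were 3.79% and 3.99%, or 6.39% and 8.02% without the 40% with the lowest signal. Cks1b, the adaptor through which Skp2 marks Cdkn1b for degradation, fell by 0.25 ± 0.06 (adjusted p = 0.0373). The kinase-activating subunit Mnat1 fell by 0.31 ± 0.06 (adjusted p = 0.0231) and Cdc25c, the mitotic relative of Cdc25a, by 0.32 ± 0.08 (adjusted p = 0.0368). With an array left out, 0 of 6 fits called Cks1b, 2 called Mnat1 and 1 called Cdc25c. Myc, a transcription factor that promotes G1 progression, was picked after its values were seen. It read 9.40, 10.75 and 10.01 in untreated and 8.97, 9.77 and 9.10 in tamoxifen arrays, with overlapping groups and a difference of -0.78 ± 0.32 (adjusted p = 0.174 without and 0.00224 with the block).

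Of 21 measured genes of S-phase entry 0 rose and 2 fell, where 3.79% of all genes rose and 3.99% fell. Without the 40% of genes with the lowest signal these shares were 6.39% and 8.02%. Orc1, a subunit of the origin recognition complex, fell by 0.38 ± 0.08 (adjusted p = 0.0209), and Cdc7, the kinase that fires origins, by 0.44 ± 0.09 (adjusted p = 0.0223). Of the 6 fits that left out an array, 2 called Orc1 and 1 called Cdc7. The other 19, which included all of the measured Mcm genes and Pcna, were not called. Of the G2 and mitotic list 4 of 5 genes were measured and 0 were called by limma. All 4 had an unadjusted p under 0.05, as did 24.5% of all genes. The values of these 4 were lower, with a median of -0.17. Ccnb2, a mitotic cyclin, had the smallest p (-0.19 ± 0.06, adjusted p = 0.105). With the block 1 of them, the germline cyclin Ccna1, fell (limma adjusted p = 0.00979, or 0.152 without the block). Ccna1 was dim, at 7.68, 7.43 and 7.40 in untreated and 7.46, 6.99 and 7.03 in tamoxifen arrays, and its groups overlapped. The array medians over genes were 7.79 to 7.84.

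**Figure D4:**
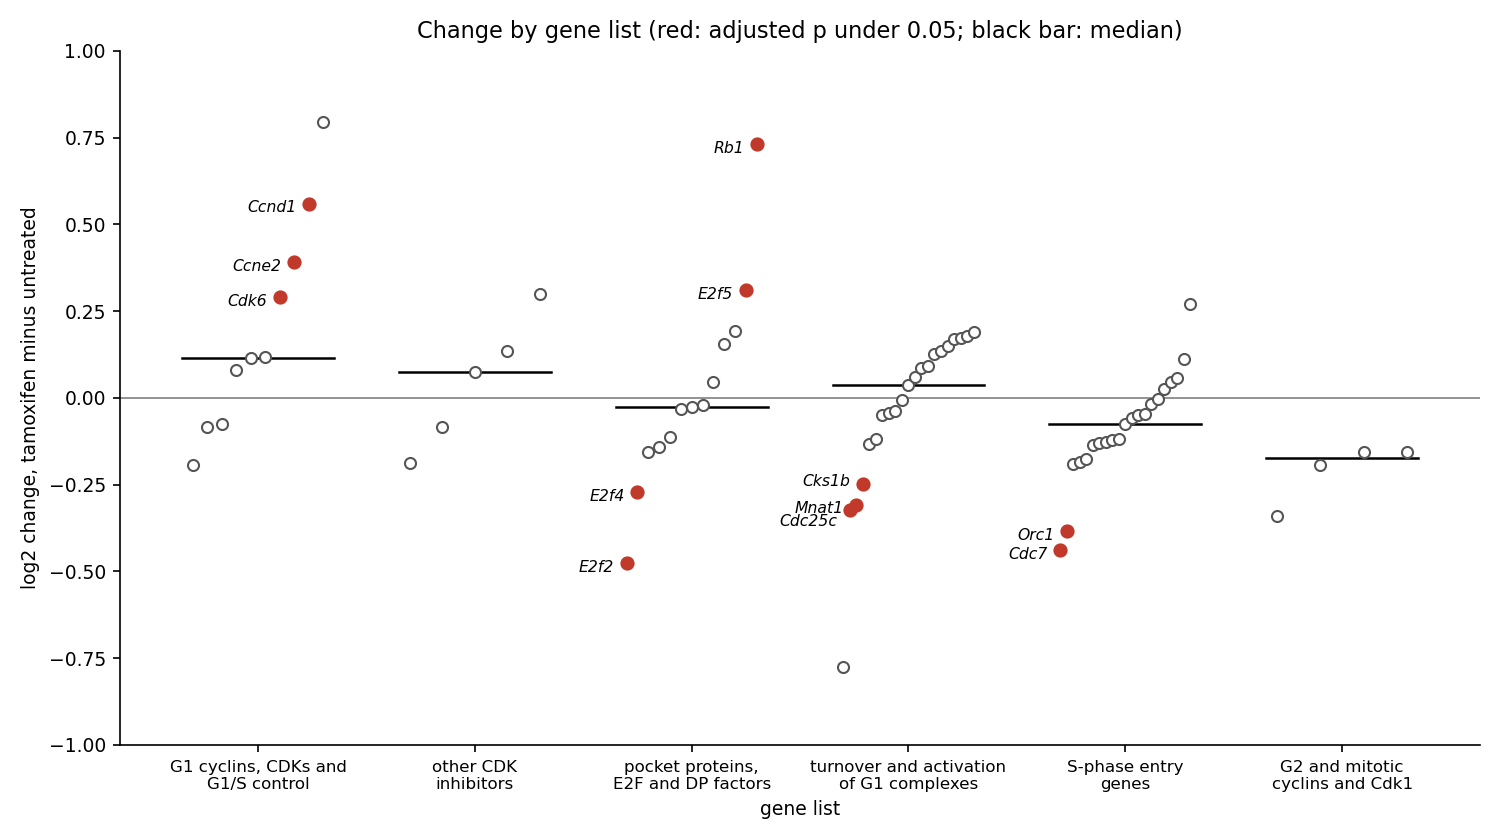
Log2 change (tamoxifen minus untreated) of the 10 genes and of 5 lists of genes that act with them, 1 point a gene, red where limma called the gene and a black bar at the median of each list. Rb1 has the largest called change at 0.73, the G2 and mitotic genes all lie below 0 without a call, and the open point above Ccnd1 is Ccnd2.

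Promoter sequence was available in RefSeq (GRCm38.p6) for 7 of the 10 genes, with Ccnd1, Ccnd2 and Ccne2 absent. Each window ran from 250 bases before to 50 bases after an annotated start site, and the 7 genes had 8 windows because Ccnd3 has 2. In 5 of the 8 the start site was the outer bound of the gene in RefSeq; those of Cdk6 and Cdc25a and the second one of Ccnd3 lay inside it, by 2889, 61 and 88416 bases. It was searched on both strands for the 8-base E2F motifs TTTCCCGC, TTTGGCGC, TTTCGCGC and TTTGCCGC, and no match overlapped another in these genes. A match was present for 2 of the 7 genes, Cdc25a and Cdk2, and for 2.60% of 27025 genes with windows of the same length (2.26% of 32851 windows). Sequence from 150 bases upstream of the start site is shown for these genes, 5′ to 3′ on the gene's strand, with the match in capitals. The Cdk2 stretch runs to the start site, and the Cdc25a stretch ends at its match, which straddles the gene's outer bound. Both genes had lower values in all 3 pairs, without a call. So did Ccne1, whose window held no match, and 26.0% of all genes. A link between match and change was not tested. The Cdc25a stretch is chr9:109875429-109875519 on the plus strand and the Cdk2 stretch chr10:128705052-128705201 on the minus strand.
Cdc25a: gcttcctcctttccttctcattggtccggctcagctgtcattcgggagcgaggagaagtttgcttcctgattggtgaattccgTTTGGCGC
Cdk2: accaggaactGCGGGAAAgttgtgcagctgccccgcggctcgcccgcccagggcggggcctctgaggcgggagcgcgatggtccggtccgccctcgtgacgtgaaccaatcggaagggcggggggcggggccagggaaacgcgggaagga
The Cdk2 match is the reverse complement of TTTCCCGC. A match describes these letters only.

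Markers of other cell types that such cultures can hold were set beside these results. The summed level of the fibroblast list, as log2 of the summed intensities, ran from 10.42 to 10.63 in untreated and from 10.50 to 10.62 in tamoxifen arrays. Primitive endoderm markers ran from 10.14 to 10.37 and from 10.14 to 10.23, and primed epiblast markers from 11.20 to 11.67 and from 11.02 to 11.51. The embryonic stem cell list ran from 16.27 to 16.34 and from 16.21 to 16.28. These ranges overlapped between groups for all 4 lists. Within replicate pairs 1, 2 and 3 the summed level changed by 0.01, -0.09 and -0.07 for the embryonic stem cell list, -0.08, 0.06 and 0.08 for fibroblast, -0.14, -0.0035 and 0.01 for primitive endoderm and -0.18, -0.17 and -0.19 for primed epiblast markers. The primed epiblast sum was thus lower in all 3 pairs, and the other sums changed sign between pairs. Dnmt3b of the primed epiblast list, a DNA methyltransferase picked after its values were seen, was at -0.42 ± 0.20 (limma adjusted p = 0.232 without and 0.00293 with the block). The other measured markers of this list were Otx2 at -0.09, Pou3f1 at 0.01, Fgf5 at 0.08 and Cdh2 at 0.36 ± 0.13. Cdh2 alone had an unadjusted limma p under 0.05, and the list's median change was 0.01. The sum follows its brightest genes, Dnmt3b and Otx2, at untreated means of 10.33 and 9.80. The part of these shifts in the members' changes was not tested. No marker value can be 0 on this scale; the lowest fibroblast marker was Lum, at a mean of 4.40 in untreated and 4.46 in tamoxifen arrays.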

How the data were processed

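Per the submitters' processing notes, the authors made the deposited log2 intensities with RMA (robust multi-array average: background correction, quantile normalisation, summary per probe set) in Affymetrix Expression Console 1.2; that they are log2 was inferred from their range, 3.18 to 14.6. The genome build behind the array annotation is not given in the sources used here. Of 35556 probe sets 21789 had 1 symbol, 1621 several and 12146 none; Entrez IDs of 21698 were found in RefSeq's GRCm38.p6 table. The brightest probe set stood for each of 19938 genes, without a filter on dim genes. Groups came from sample titles. They were compared with limma 3.58.1 (lmFit, eBayes, two-sided) in R 4.3.3, and the code was tested on simulated data. Called means a Benjamini-Hochberg adjusted p under 0.05, and "rose" and "fell" mean called. The members and lists were chosen with earlier results of these data known; the comparisons of related genes were added later. Named were all members, up to 3 called genes per direction and list, the smallest p where none was called, and Dicer1. Myc, Rbl2, Ccna1, Pcna and the Mcm genes fall outside this rule. So do the markers Pou5f1, Sox2, Nanog, Utf1, Tdgf1, Zfp42, Tfcp2l1, Dnmt3b, Otx2, Fgf5, Pou3f1, Cdh2 and Lum. Deviations of same-numbered arrays from their group means correlated at 0.356, 0.345 and 0.389 across genes, so the numbers were taken to pair the arrays. Precision is limited by the number of arrays. Alternatives were the replicate block, other summaries of probe sets, other sets of features, centring, cyclic loess, another variance prior, a threshold of 0.01 and leaving out each array.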

Additional observations from a re-analysis of the deposited data

How the results depend on the processing

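The direction of all 10 members was the same under every alternative tried. Only centring, cyclic loess, leaving out an array and, for Cdkn1b, averaging probe sets could alter it. The other alternatives leave the log2 change of a member as it is and so do not test its direction. The counts of 3 members higher and 0 lower held when probe sets of a gene were averaged, with all probe sets of 1 symbol as features, without the 40% of genes with the lowest signal, after centring on medians, after cyclic loess, and with eBayes set to trend and robust. Over all 35556 probe sets, 0 members were called by limma (adjusted p of 0.0724, 0.0889 and 0.104 for Ccnd1, Ccne2 and Cdk6). In that fit 1 network gene rose and 0 fell, and 221 probe sets rose and 115 fell in all. It held more features, and standard errors differed too, from 0.102 to 0.110 for Ccnd1 and from 0.0601 to 0.0570 for Cdk2. The part of each was not tested. At an adjusted p under 0.01, 0 members were called, 1 network gene rose and 0 fell, and 179 genes rose and 97 fell in all. With the replicate block, 1570 genes rose and 1902 fell, and 4 members rose. Leaving out 1 array gave 0 to 4 members higher (0 without tamoxifen replicate 2 or 3), 1 to 2 network genes higher and 0 to 6 lower, and 221 to 686 genes higher and 134 to 894 lower in all; the main counts were 756 and 796. The median change of all genes lay between -0.03 and 0.01 under every setting. Of the members' other blocked calls, none changed apart from that of Ccnd2.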
